A study of Mus musculus with 24 samples.

Results

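The TNF superfamily comprises ligands, most of them trimeric proteins anchored in the membrane, and the receptors that bind them. Open chromatin at 29 genes of the superfamily, 11 ligand genes and 18 receptor genes among 21951 protein-coding genes, was compared in bone marrow-derived macrophages of mouse strains BTBR and C57BL6/J. The members were all protein-coding genes of the GENCODE annotation of mm10 whose symbol begins with Tnfsf or Tnfrsf followed by a digit, apart from both TNF receptor genes, Tnfrsf1a and Tnfrsf1b. The rule uses the symbol and no measured value.

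The assay was ATAC-seq, which uses a transposase to cut and tag accessible DNA. Marrow of male mice, taken at postnatal day 28, was cultured for 7 days to obtain the macrophages. The 8 biological replicates, taken here as 8 animals, each gave 3 libraries. The C57BL6/J animals had the numbers 1, 4, 6 and 7, and those numbered 2, 3, 5 and 8 were BTBR T+ Itpr3tf/J (BTBR), an inbred strain used as a model of autism-like behaviour. All cultures were reseeded, washed and medium-changed on the same schedule. Media cultures received no lipopolysaccharide (LPS), a bacterial cell wall component sensed through Tlr4. LPSx1 cultures received 100 ng/ml LPS for the last 24 hours. LPSx2 cultures had in addition received 100 ng/ml LPS for 4 hours, about 20 hours before that final dose. The 4 sequencing lanes took 1 animal of each strain in numerical order (1 with 2, 3 with 4, 5 with 6, 7 with 8), so that lane and animal are the same thing within a strain.

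Binding of a ligand clusters its receptor, and the receptor tail then recruits TRAF adaptors or death-domain proteins that lead to NF-kB, MAP kinase or caspase signalling. Macrophages are known for producing BAFF and APRIL (Tnfsf13b and Tnfsf13), which keep B cells alive, and TWEAK (Tnfsf12), and for responding to RANKL (Tnfsf11) through RANK (Tnfrsf11a) on the way to becoming osteoclasts. Antigen-presenting cells also carry costimulatory ligands for T cells, among them OX40L (Tnfsf4), 4-1BBL (Tnfsf9), GITRL (Tnfsf18) and CD30L (Tnfsf8), whose receptors Tnfrsf4, Tnfrsf9, Tnfrsf18 and Tnfrsf8 are known mainly from lymphocytes.

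The files list called peaks, not reads, and read depth is not given; the number of peaks was 299 to 127291 per library. Both libraries under 5000 peaks, the C57BL6/J animal 6 media and LPSx2 cultures, were left out, which leaves 7 media, 8 LPSx1 and 7 LPSx2 libraries. In 7 lists (all of animal 1, and media and LPSx2 of animals 3 and 4) 66.7% to 87.4% of peaks overlapped another peak of the same list, against at most 0.213% in the others, and overlapping peaks were merged. Merged list length differed between groups, with a median of 22382 peaks in media, 30872 in LPSx1 and 33184 in LPSx2. Every list was therefore shortened to its strongest peaks so that all lists of a lane were equally long (11349, 22037, 16045 and 13957 peaks in lanes 1 to 4). Lists were longest in lane 2, so peak numbers can also differ by lane. Where an animal or list is left out below, the remaining lists of its lane were shortened anew and can be longer. A peak number below is thus the number among these strongest peaks that lie nearer to the gene than to any other protein-coding start site, within 100 kb, and a change in it is a change in the share of strong peaks. Because the stretch nearest to a gene differs in length between genes, peak numbers are compared between groups for 1 gene and not read as activity between genes. Among cell type markers, all 10 macrophage genes were tested. Of 8 T and NK cell markers 4 had 0 peaks in all 22 libraries, as had 4 of 6 B cell and 4 of 5 stromal cell markers, and summed peaks per library were 2 to 7, 0 to 1 and 0 to 2 for these lists.

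Of 65 accessible regions assigned to members, the 5 on which the results turn are shown by their best-ranked 201 bp peak (mm10, plus strand, 1-based). The first is the region found in every library, the next is the Tnfsf4 region most often gained with LPS, then come the members' regions called gained and lost after a single dose, and the last is the Tnfsf12 intron region held by every media library. Capitals mark matches, on either strand, to the consensus letters of AP-1 (TGACTCA), C/EBP (TTGCNNAA), PU.1 (GAGGAAGT), STAT (TTCCNGGAA), the interferon-stimulated response element or NF-kB.
Tnfsf18, intergenic, 12.2 kb before the start site, chr1:161482310-161482510: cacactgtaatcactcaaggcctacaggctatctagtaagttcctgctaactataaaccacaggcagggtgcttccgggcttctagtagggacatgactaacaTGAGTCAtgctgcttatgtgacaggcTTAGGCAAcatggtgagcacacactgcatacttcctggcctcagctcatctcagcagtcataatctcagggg
Tnfsf4, intergenic, 66.0 kb before the start site, chr1:161329313-161329513: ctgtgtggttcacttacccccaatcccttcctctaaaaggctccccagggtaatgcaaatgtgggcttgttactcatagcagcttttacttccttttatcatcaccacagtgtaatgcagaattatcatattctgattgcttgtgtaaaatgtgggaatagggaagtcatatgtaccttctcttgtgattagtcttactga
Tnfrsf8, intron, 31.6 kb into the gene, chr4:145283498-145283698: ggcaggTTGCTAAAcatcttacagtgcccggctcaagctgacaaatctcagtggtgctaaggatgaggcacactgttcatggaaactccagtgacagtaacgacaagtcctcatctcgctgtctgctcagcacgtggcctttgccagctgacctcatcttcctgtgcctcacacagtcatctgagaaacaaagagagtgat
Tnfsf8, intergenic, 45.4 kb after the start site, chr4:63815794-63815994: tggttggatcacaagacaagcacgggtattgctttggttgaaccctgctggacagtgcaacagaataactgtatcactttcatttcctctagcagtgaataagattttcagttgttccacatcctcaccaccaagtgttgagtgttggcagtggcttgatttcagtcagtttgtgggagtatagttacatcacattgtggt
Tnfsf12, intron, 3.1 kb after the start site, chr11:69692287-69692487: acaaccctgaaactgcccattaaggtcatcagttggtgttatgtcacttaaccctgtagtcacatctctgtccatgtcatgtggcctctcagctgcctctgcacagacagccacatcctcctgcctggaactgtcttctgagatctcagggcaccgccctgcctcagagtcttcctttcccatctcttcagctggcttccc
The Tnfsf18 peak holds an AP-1 and a C/EBP match that do not overlap, the Tnfrsf8 peak holds a C/EBP match, and the other peaks hold none of these letters. Among the 49 member regions more than 1 kb from their start site, AP-1 letters were found in 9, C/EBP in 11, PU.1 in 3, NF-kB in 3, the interferon-stimulated element in 1 and STAT in 0. Over all 30902 such regions the shares were 21.1% for AP-1, 15.6% for C/EBP, 11% for PU.1, 4.12% for NF-kB, 3.48% for the interferon-stimulated element and 0.667% for STAT. A match is a description of the letters and not evidence of binding.

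Accessible chromatin was unevenly spread over the family. Of the 29 members, 15 reached the mean of 0.5 peaks per library required for testing, 7 of 11 ligands and 8 of 18 receptors, a share of 51.7% against 41.6% of all protein-coding genes. A peak within 1 kb of the start site in over 50% of libraries was found at 13.8% of members and 27.2% of all genes. These 13.8% are Tnfrsf21, Tnfrsf23, Tnfsf13b and Tnfrsf22, which had such a peak in 20, 21, 19 and 13 of 22 libraries. Members together took 466 of 321817 gene-assigned peaks (0.145%). By library this share ranged between 0.103% and 0.183% in media. It ranged between 0.109% and 0.191% after LPSx1 and between 0.104% and 0.166% after LPSx2, so that all groups overlapped.

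**Figure D1:**
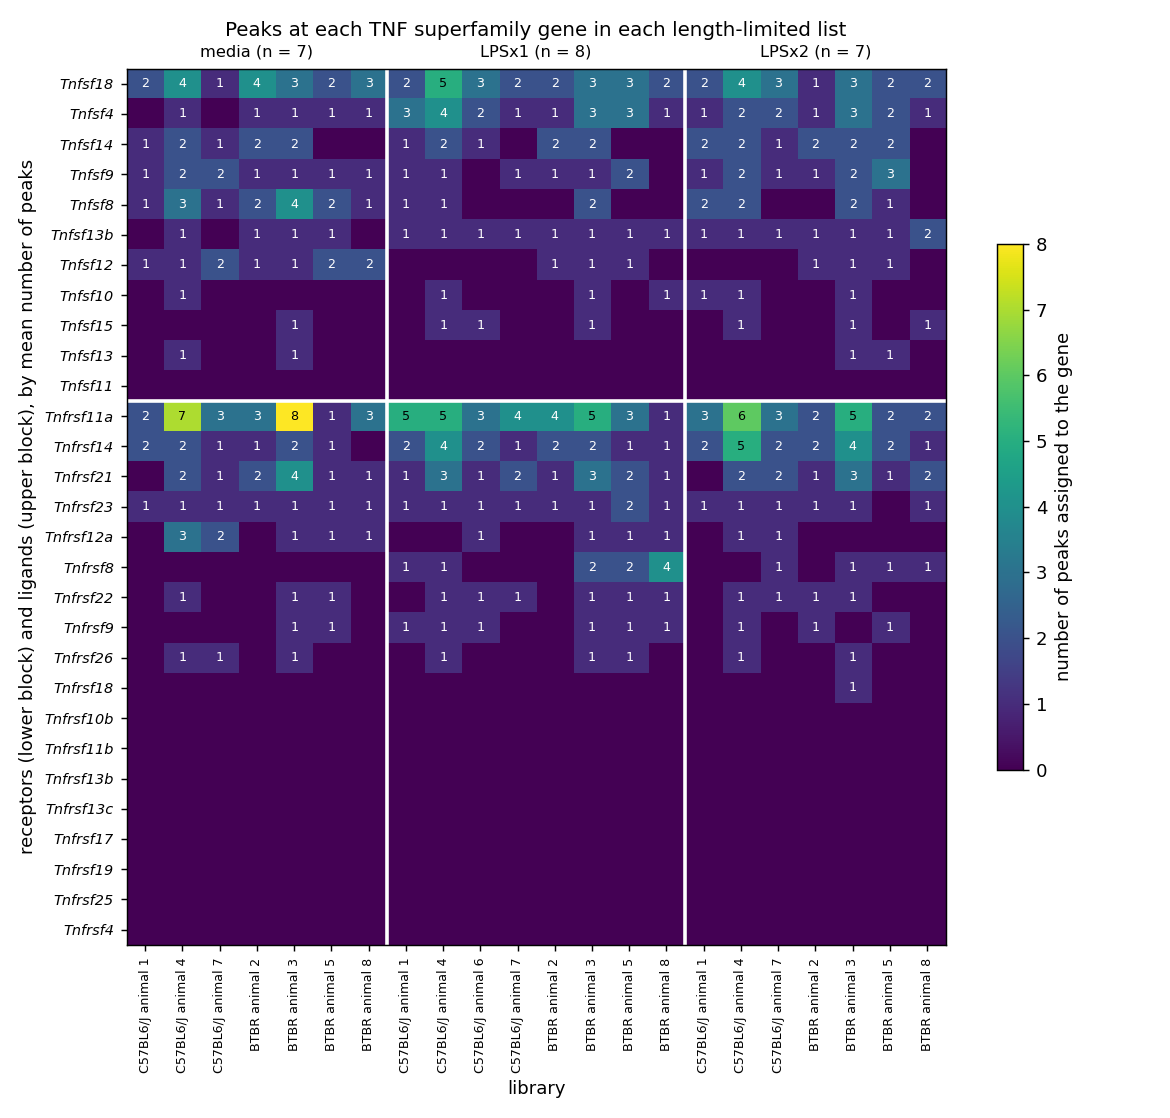
Number of peaks at each of the 29 members (rows, ligands above and receptors below) in each of the 22 kept libraries (columns, by treatment and strain), from lists of equal length within a lane; empty cells are 0. Tnfrsf11a and Tnfsf18 have a peak in all 22 libraries, while Tnfsf11 and 8 receptors have none.

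Tnfrsf11a, the RANK receptor, had the most peaks, a mean of 3.64 ± 1.84 (SD, n = 22 libraries; 1 to 8). It had 1 or more in all 22 libraries. Its intron held the regions 6.5 kb and 9.6 kb after the start site in 20 and 21 of 22 libraries. Tnfsf18, the GITR ligand, followed with 2.64 ± 1.00 peaks (1 to 5), again in all 22 libraries. The Tnfsf18 region 12.2 kb before its start site, printed above, was the only member region in every library. It ranked at a median of 13.6% from the top of a list, and at best at 2.82%. Of all 44999 regions 6.68% were in every library.

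By contrast, 9 members had no peak among the strongest peaks in any library. These were the RANK ligand gene Tnfsf11, the OX40 gene Tnfrsf4, the B-cell receptors for BAFF and APRIL (Tnfrsf13b, Tnfrsf13c and Tnfrsf17), the TRAIL receptor gene Tnfrsf10b, the osteoprotegerin gene Tnfrsf11b, the TROY gene Tnfrsf19 and the DR3 gene Tnfrsf25. A share of 31% of members without a peak compares with 37.4% of all genes. In the lists at full length Tnfrsf11b and Tnfrsf25 remained without a peak, and the other 7 had one in 1 to 7 of 22 libraries. Another 5 members had a peak in some libraries but too few to test: Tnfrsf26 in 8 of 22, the TRAIL gene Tnfsf10 in 7, the TL1A gene Tnfsf15 in 7, the APRIL gene Tnfsf13 in 4 and the GITR gene Tnfrsf18 in 1. A gene listed at 0 is one without a called strong peak, which does not show that its chromatin was closed.

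After a single dose of LPS, peaks at 3 of the 15 tested members passed the test, all of them ligands: Tnfsf4 rose, and Tnfsf8 and Tnfsf12 fell. In the same fit 5.58% of the 9137 tested genes passed (510 genes; 3.31% higher and 2.28% lower; limma, Benjamini-Hochberg adjusted p over all genes, threshold 0.05). The median difference was 0.12 peaks over the 15 members and 0.00 over all genes, and 10 members had a difference above 0. After the repeated dose, 2 of the 15 passed, a fall of Tnfsf12 and a rise of the receptor gene Tnfrsf14, against 6.22% of all tested genes (568 genes; 3.41% higher and 2.8% lower). The median difference there was 0.08 peaks over the members and 0.00 over all genes. Both comparisons use the same media libraries. With lists at full length, or shortened within an animal in place of a lane, 0 members and 0 of all genes passed for either regimen, so that these calls hold only for lists made equally long within a lane. Among the stronger 50% of each list 7 members reached the minimum for testing, and only Tnfsf13b passed, for both regimens. Tnfsf4, Tnfsf8 and Tnfsf12 were below that minimum there and were not tested. Tnfrsf14 was tested and did not pass after LPSx2 (0.92 ± 0.27, adjusted p = 0.0622).

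**Figure D2:**
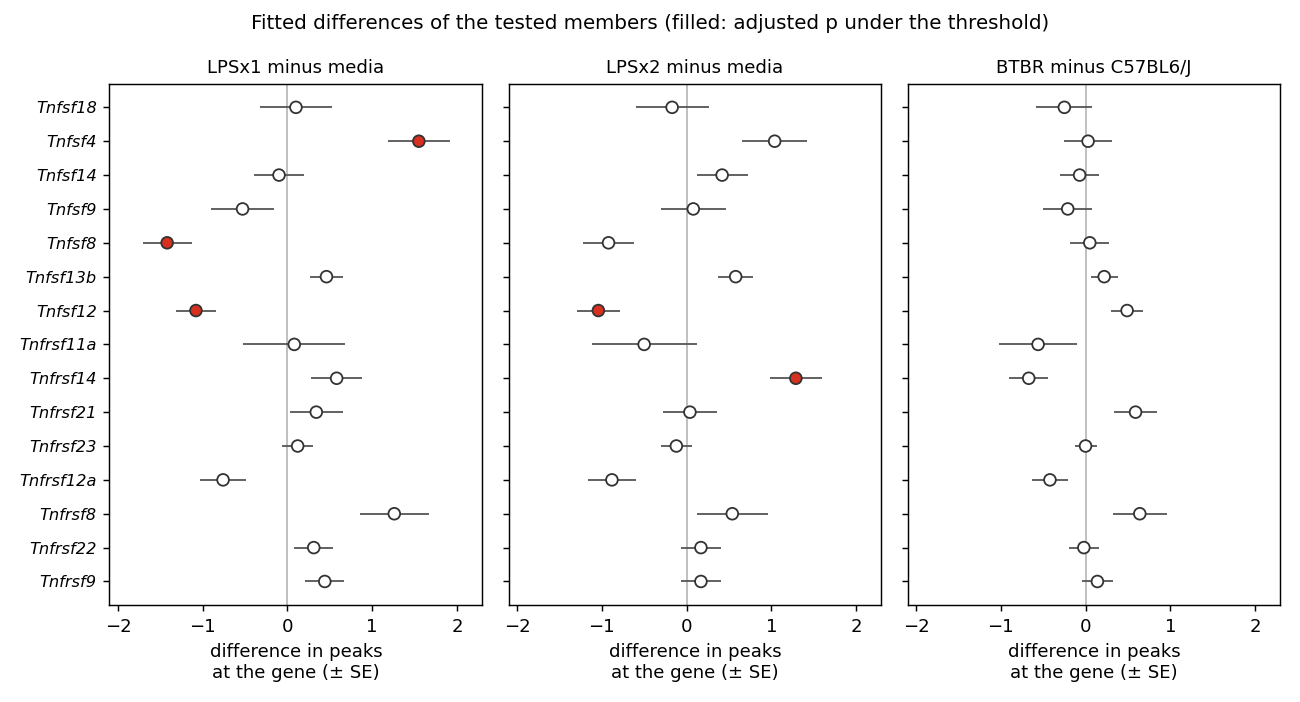
Fitted difference in the number of peaks for the 15 tested members (rows) after LPSx1, after LPSx2 and between strains (panels), with bars of 1 standard error; filled points passed the adjusted threshold of 0.05. The filled points are Tnfsf4, Tnfsf8 and Tnfsf12 for LPSx1, Tnfsf12 and Tnfrsf14 for LPSx2, and none for the strain.

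Among the ligands, Tnfsf4 encodes OX40L, a T-cell costimulatory ligand induced on activated antigen-presenting cells. In C57BL6/J media libraries it had 0, 1 and 0 peaks (animals 1, 4 and 7), and in every BTBR media library 1 peak. In C57BL6/J LPSx1 libraries it had 3, 4, 2 and 1 peaks (animals 1, 4, 6 and 7), and in BTBR LPSx1 libraries 1, 3, 3 and 1 (animals 2, 3, 5 and 8). No media library exceeded 1 peak, whereas 5 of 8 LPSx1 libraries had 2 or more, and the groups met at 1. The means were 0.714 ± 0.488 (SD, n = 7) in media and 2.25 ± 1.17 (n = 8) in LPSx1. The fitted difference was 1.55 ± 0.37 peaks (SE; limma adjusted p = 0.0271), with 5 of 7 animals higher, 0 lower and 2 equal. LPSx2 libraries had 1, 2 and 2 peaks in C57BL6/J and 1, 3, 2 and 1 in BTBR, a difference from media of 1.04 ± 0.38 that did not pass (adjusted p = 0.108), although it did on the log2(peaks + 1) scale (0.73, adjusted p = 0.034). The mean difference after LPSx1 was 2.00 in the 4 animals of lanes 1 and 2 and 1.00 in the 3 of lanes 3 and 4. The call was lost without animal 3, 4 or 5 (adjusted p = 0.100, 0.125 and 0.0805), and without the 7 lists rich in overlapping peaks the difference was 1.33 (adjusted p = 0.302). Here and below, leaving out these 7 lists kept 15 libraries and 4 animals with both treatments. It also changed list lengths, so a lost call there is not only a matter of the lists removed.

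The region printed above, 66.0 kb before the Tnfsf4 start site, was present in 2 of 7 media, 7 of 8 LPSx1 and 6 of 7 LPSx2 libraries. It appeared in 4 of 7 animals with either regimen and disappeared in 0, which is 1 animal short of the 5 required to count as gained. Among the stronger 50% of each list a Tnfsf4 region did count as gained after LPSx1. In lists at full length it was in 4 of 7, 7 of 8 and 6 of 7 libraries. A second region at 33.6 kb before the start site was in 0 of 7 media, 3 of 8 LPSx1 and 2 of 7 LPSx2 libraries. Both lie on the side of Prdx6, whose start site is farther away (78.2 kb and 110.6 kb). The neighbouring ligand gene Tnfsf18 lies downstream and did not pass, with differences of 0.10 ± 0.42 (adjusted p = 0.974) and -0.17 ± 0.43 (adjusted p = 0.882). Its region inside the gene, 2.8 kb after the start site, was in 6 of 7 media, 4 of 8 LPSx1 and 1 of 7 LPSx2 libraries, lost in 6 animals with the repeated dose and gained in 1.

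Tnfsf8 encodes CD30L. In media it had 1, 3 and 1 peaks in C57BL6/J (animals 1, 4 and 7) and 2, 4, 2 and 1 in BTBR (animals 2, 3, 5 and 8). After LPSx1 it had 1, 1, 0 and 0 in C57BL6/J (animals 1, 4, 6 and 7) and 0, 2, 0 and 0 in BTBR. All 7 media libraries had a peak against 3 of 8 LPSx1 libraries, and the values overlapped only at 1 and 2. The mean went from 2.00 ± 1.16 (SD, n = 7) to 0.50 ± 0.756 (n = 8), and the fitted difference was -1.42 ± 0.29 (adjusted p = 0.0133), with 6 of 7 animals lower and 0 higher. LPSx2 libraries had 2, 2 and 0 peaks in C57BL6/J and 0, 2, 1 and 0 in BTBR, and the difference from media of -0.92 ± 0.30 did not pass (adjusted p = 0.0786). The mean difference after LPSx1 was -1.5 in lanes 1 and 2 and -1.33 in lanes 3 and 4. The fall depended on the processing of the lists: without merging of overlapping peaks the difference was -0.12 (adjusted p = 0.865), with lists at full length it turned to 2.05 and with lists shortened within an animal to 0.10 (adjusted p = 0.720 and 1.00). It lost its call without animal 1, 4, 5, 7 or 8 (adjusted p = 0.375, 0.291, 0.0666, 0.0583 and 0.0544), and without the 7 lists rich in overlapping peaks it was -0.62 (adjusted p = 0.859).

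The region 45.4 kb after the Tnfsf8 start site (chr4:63815774-63816022, best-ranked peak printed above) counted as lost after LPSx1, present before and absent after in 5 of 7 animals and the reverse in 0. It was in 6 of 7 media, 1 of 8 LPSx1 and 2 of 7 LPSx2 libraries. The only media library without it was C57BL6/J animal 7, and the only LPSx1 library with it was BTBR animal 3. It ranked low, at a median of 75.7% from the top of a list, and lists at full length held it in 6 of 7, 3 of 8 and 5 of 7 libraries. At best this region ranked at 62.8%, so it could not be among the stronger 50% of any list. No Tnfsf8 region counted as lost there. Over all regions 1.17% were lost by this rule, 1.86% were gained and 3.02% were either.

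Tnfsf12 encodes TWEAK, a ligand produced by monocytes and macrophages. In media it had 1, 1 and 2 peaks in C57BL6/J (animals 1, 4 and 7) and 1, 1, 2 and 2 in BTBR (animals 2, 3, 5 and 8). After LPSx1 it had 0 in all 4 C57BL6/J libraries and 1, 1, 1 and 0 in BTBR, and after LPSx2 0 in all 3 C57BL6/J libraries and 1, 1, 1 and 0 in BTBR. Every C57BL6/J library with LPS was thus below every media library, whereas BTBR libraries with and without LPS met at 1 peak. The means were 1.43 ± 0.535 (SD, n = 7) in media, 0.375 ± 0.518 (n = 8) after LPSx1 and 0.429 ± 0.535 (n = 7) after LPSx2. The difference was -1.08 ± 0.24 after LPSx1 (adjusted p = 0.0203) and -1.04 ± 0.25 after LPSx2 (adjusted p = 0.0254), with 5 of 7 animals lower and 0 higher each time. The mean difference was -0.50 in lanes 1 and 2 and -1.67 in lanes 3 and 4 for both regimens. Both calls were lost without animal 4, 5 or 7 (adjusted p = 0.148, 0.103 and 0.0791 for LPSx1, and 0.135, 0.0940 and 0.0968 for LPSx2). Without the 7 lists rich in overlapping peaks the differences were -1.83 and -1.67 (adjusted p = 0.103 and 0.179).

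The Tnfsf12 intron region printed above, 3.1 kb after the start site, was in 7 of 7 media, 3 of 8 LPSx1 and 3 of 7 LPSx2 libraries. The 6 LPS libraries with it all came from BTBR animals 2, 3 and 5, and 0 of 7 C57BL6/J LPS libraries had it. It was lost in 4 of 7 animals with each regimen and gained in 0, below the 5 required for a call, whereas among the stronger 50% of each list a Tnfsf12 region counted as lost with each regimen. Lists at full length held it in 7 of 7, 4 of 8 and 5 of 7 libraries. The region at the Tnfsf12 promoter was in 4 of 7 media, 1 of 8 LPSx1 and 1 of 7 LPSx2 libraries. That promoter is shared with Tnfsfm13, a read-through gene of Tnfsf12 and Tnfsf13, and 3 of its 6 peaks lay nearer to the Tnfsfm13 start site and were counted there. The intron region 3.1 kb after the Tnfsf12 start site is also in an intron of Tnfsfm13, 3.4 kb from the start site of that gene. All 13 of its peaks were counted at Tnfsf12.

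**Figure D3:**
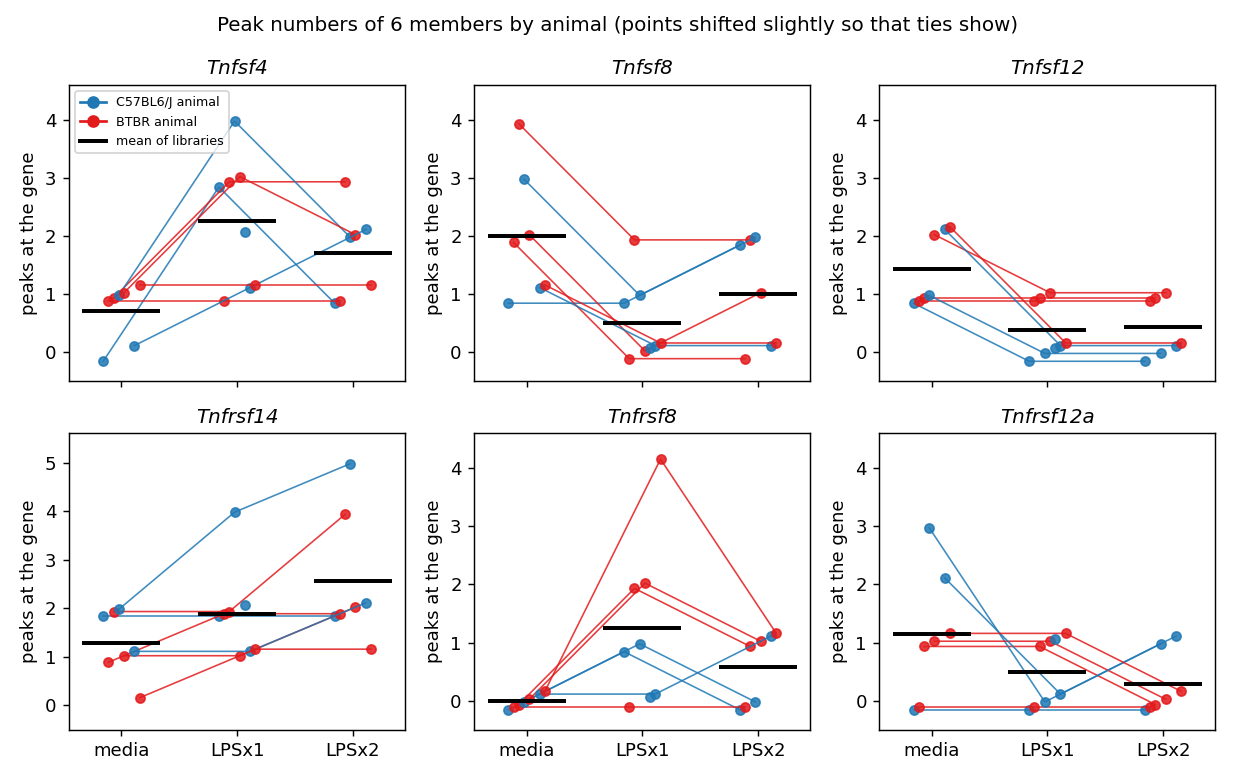
Number of peaks at 6 members (panels) in each animal across media, LPSx1 and LPSx2, with blue lines for C57BL6/J animals, red lines for BTBR animals and black bars for the mean of the libraries. Tnfsf12 lies at 1 or 2 in every media library and at 0 in every C57BL6/J library with LPS, and Tnfrsf8 lies at 0 in every media library.

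Of the ligands that did not pass, Tnfsf13b, the BAFF gene, came closest in its promoter. The promoter region was in 4 of 7 media, 8 of 8 LPSx1 and 7 of 7 LPSx2 libraries, gained in 3 of 7 animals with each regimen and lost in 0. The 3 media libraries without it were C57BL6/J animals 1 and 7 and BTBR animal 8. Peak numbers were 0.571 ± 0.535 (SD, n = 7) in media, 1.00 ± 0.00 (n = 8) after LPSx1 and 1.14 ± 0.378 (n = 7) after LPSx2. The differences of 0.46 ± 0.20 and 0.58 ± 0.21 did not pass (adjusted p = 0.211 and 0.108). Among the stronger 50% of each list alone they were 0.86 and 1.00 and passed (adjusted p = 0.000869 and 0.000395). Leaving out an animal changed the values and also the list length of its lane partner. Without animal 8 both differences were 0.17 (adjusted p = 0.495 and 0.487), and without animal 1 they were 1.00 and 1.12 (adjusted p = 0.350 and 0.312). The lists of animal 7 then held 22382 peaks in place of 13957, and those of animal 2 held 63125 in place of 11349. The part of each was not tested. Tnfsf14, the LIGHT gene, had 1.23 ± 0.869 peaks (SD, n = 22; 0 to 2) with differences of -0.10 ± 0.29 and 0.42 ± 0.30 (adjusted p = 0.920 and 0.419). Tnfsf9, the 4-1BBL gene, had 1.18 ± 0.733 peaks (0 to 3), with its region 7.8 kb after the start site in 18 of 22 libraries and differences of -0.53 ± 0.37 and 0.08 ± 0.38 (adjusted p = 0.432 and 0.981).

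Among the receptors, Tnfrsf14 (HVEM, the receptor for LIGHT) rose after the repeated dose. In media it had 2, 2 and 1 peaks in C57BL6/J (animals 1, 4 and 7) and 1, 2, 1 and 0 in BTBR (animals 2, 3, 5 and 8). After LPSx2 it had 2, 5 and 2 in C57BL6/J and 2, 4, 2 and 1 in BTBR. The groups overlapped at 1 and 2, and the 2 libraries above 2 were LPSx2 libraries of animals 4 and 3. Both animals are in lane 2, which had the longest lists (22037 peaks). The means were 1.29 ± 0.756 (SD, n = 7) and 2.57 ± 1.40 (n = 7), and the difference was 1.29 ± 0.31 (adjusted p = 0.0278), with 6 of 7 animals higher and 0 lower. With the animal as a replicate block in place of the lane the difference was 1.29 ± 0.34 and no longer passed (adjusted p = 0.0533). LPSx1 libraries lay between, with 1.88 ± 0.991 (n = 8), a difference from media of 0.58 ± 0.30 (adjusted p = 0.286). The mean difference after LPSx2 was 1.5 in lanes 1 and 2 and 1.00 in lanes 3 and 4. The call was also lost without animal 1, 3, 4, 5 or 7 (adjusted p = 0.0558, 0.0683, 0.121, 0.0830 and 0.0826), and without the 7 lists rich in overlapping peaks (1.33, adjusted p = 0.572).

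No single Tnfrsf14 region met the counting rule. The region 15.9 kb before the start site was in 21 of 22 libraries. The region 1.0 kb before it went from 3 of 7 media to 4 of 8 LPSx1 and 5 of 7 LPSx2 libraries, and the region 6.6 kb before it from 0 of 7 to 1 of 8 and 3 of 7.

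Tnfrsf8, the CD30 gene and receptor of Tnfsf8, had 0 peaks in all 7 media libraries. After LPSx1 it had 1, 1, 0 and 0 in C57BL6/J (animals 1, 4, 6 and 7) and 0, 2, 2 and 4 in BTBR (animals 2, 3, 5 and 8). After LPSx2 it had 0, 0 and 1 in C57BL6/J and 0, 1, 1 and 1 in BTBR. The difference of 1.26 ± 0.41 after LPSx1 did not pass (adjusted p = 0.0868, 5 of 7 animals higher and 0 lower), nor did 0.54 ± 0.42 after LPSx2 (adjusted p = 0.458). The LPSx1 difference did pass without merging of overlapping peaks (1.41, adjusted p = 0.0119) and without animal 2 (1.64, adjusted p = 0.0212). Its intron region 31.6 kb after the start site (chr4:145283442-145283718, best-ranked peak printed above) counted as gained after LPSx1, in 5 of 7 animals with the reverse in 0. It was in 0 of 7 media, 5 of 8 LPSx1 and 4 of 7 LPSx2 libraries, and in lists at full length in 1 of 7, 7 of 8 and 6 of 7. Among the stronger 50% of each list no Tnfrsf8 region counted as gained. The intron region ranked at a median of 58.7% from the top in its 9 libraries. It could therefore not reach the 5 animals required there. That region lies 36.7 kb from the start site of Tnfrsf1b, the gene of TNF receptor type II, which had 6.43 ± 2.44 peaks (SD, n = 7) in media and 10.1 ± 3.09 (n = 8) after LPSx1 and itself rose by 4.09 ± 0.74 (adjusted p = 0.00697). Assignment by the nearest start site does not say which receptor gene the region serves.

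**Figure D4:**
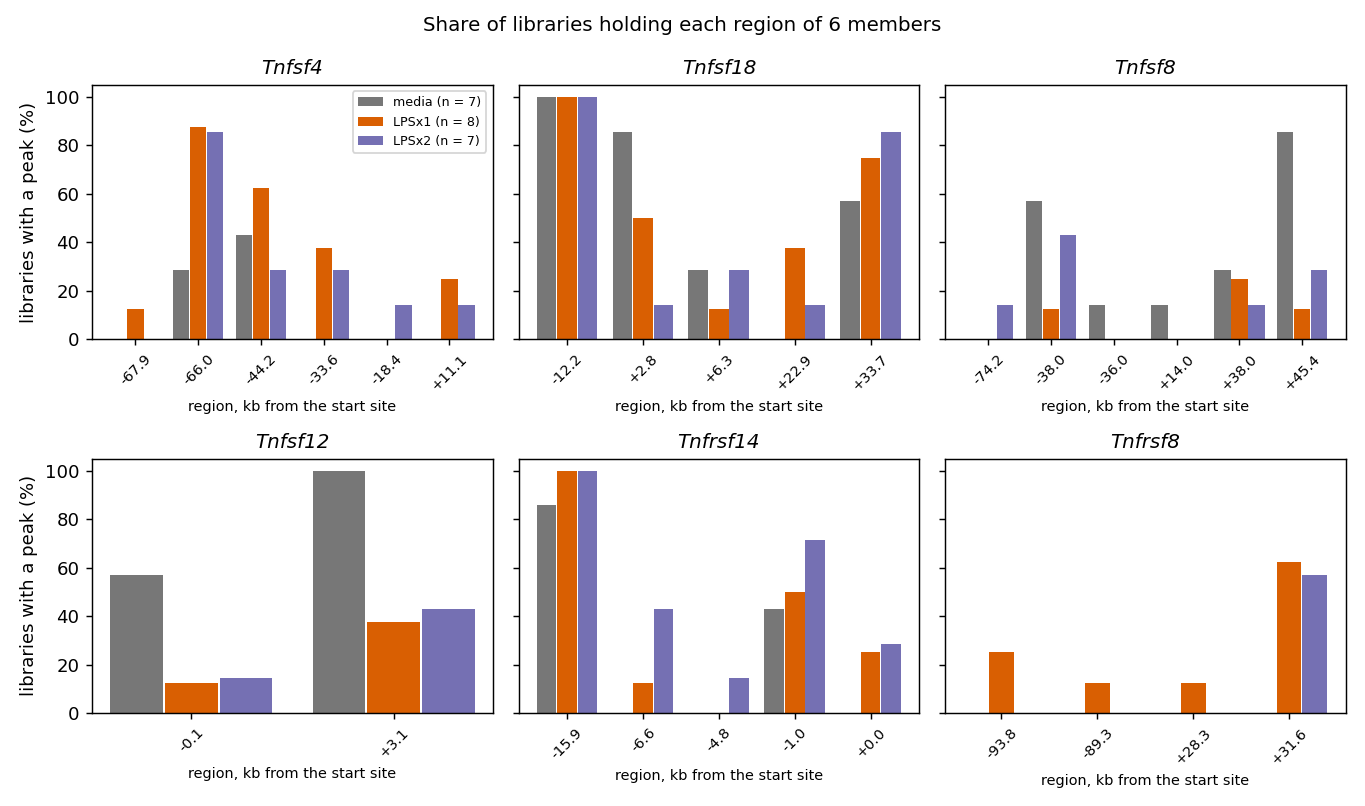
Share of libraries holding each region (bars, in percent of 7 media, 8 LPSx1 and 7 LPSx2 libraries) at 6 members, with regions ordered by distance in kb from the start site, negative before and positive after it. Media libraries alone fill the Tnfsf12 intron region at +3.1 kb completely, the Tnfsf18 region at -12.2 kb is full in all treatments, and the Tnfrsf8 region at +31.6 kb has no media bar.

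Tnfrsf12a, the TWEAK receptor gene, had peak numbers in media of 0, 3 and 2 in C57BL6/J (animals 1, 4 and 7) and 0, 1, 1 and 1 in BTBR (animals 2, 3, 5 and 8). After LPSx1 it had 0, 0, 1 and 0 in C57BL6/J and 0, 1, 1 and 1 in BTBR, and after LPSx2 0, 1 and 1 in C57BL6/J and 0 in all BTBR libraries. The values overlapped at 0 and 1. The differences of -0.76 ± 0.27 and -0.88 ± 0.28 did not pass (adjusted p = 0.117 and 0.0765), with 2 and 5 of 7 animals lower and 0 higher. Without animal 1 both differences were -1.38 and passed (adjusted p = 0.0226 and 0.0250). Animal 1 had 0 in every library, but leaving it out also lengthened the lists of animal 2 from 11349 to 63125 peaks. The part of each was not tested.

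Tnfrsf21, the DR6 gene, had its promoter region in 20 of 22 libraries, and peak numbers of 1.57 ± 1.27 (SD, n = 7) in media, 1.75 ± 0.886 (n = 8) after LPSx1 and 1.57 ± 0.976 (n = 7) after LPSx2. The differences of 0.34 ± 0.31 and 0.04 ± 0.32 did not pass (adjusted p = 0.569 and 1.00). An intron region 42.3 kb after its start site was in 0 of 7 media, 4 of 8 LPSx1 and 4 of 7 LPSx2 libraries, gained in 4 of 7 animals with each regimen, and in 3 of 7, 7 of 8 and 6 of 7 lists at full length. At Tnfrsf11a the differences were 0.08 ± 0.60 and -0.50 ± 0.62 (adjusted p = 1.00 and 0.666). The decoy TRAIL receptor genes Tnfrsf23 and Tnfrsf22 had their promoter regions in 21 and 13 of 22 libraries, with differences between -0.12 and 0.31 peaks and adjusted p of 0.472 or more. Tnfrsf9, the 4-1BB gene, had 0.50 ± 0.512 peaks (n = 22). Its promoter region was in 21 of 22 libraries, but it lies 0.1 kb from the start site of Park7, and only 10 of its 21 peaks were counted at Tnfrsf9, so that differences at Tnfrsf9 (0.44 ± 0.23 and 0.17 ± 0.24, adjusted p = 0.294 and 0.717) partly record which start site was nearer.

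Setting the ligands beside their known receptors, both genes of a pair were tested for Tnfsf14 and Tnfrsf14, Tnfsf8 and Tnfrsf8, Tnfsf12 and Tnfrsf12a, and Tnfsf9 and Tnfrsf9. After LPSx1 the fitted values were -0.10 and 0.58 for Tnfsf14 and Tnfrsf14, -1.42 and 1.26 for Tnfsf8 and Tnfrsf8, -1.08 and -0.76 for Tnfsf12 and Tnfrsf12a, and -0.53 and 0.44 for Tnfsf9 and Tnfrsf9. Of these 8 values only those of Tnfsf8 and Tnfsf12 passed. For Tnfsf4 and Tnfsf18 the receptor genes, Tnfrsf4 and Tnfrsf18, had 0 and 1 of 22 libraries with a peak, and for Tnfrsf11a the ligand gene Tnfsf11 had 0.

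Between the repeated and the single dose, 0 of the 15 members and 0 of the 9137 tested genes passed (limma), with 400 genes at an unadjusted p under 0.05. The only member among those 400 was Tnfrsf14, 0.71 ± 0.30 peaks higher after LPSx2 (adjusted p = 0.984). The other named differences were 0.50 ± 0.29 at Tnfsf8, -0.51 ± 0.37 at Tnfsf4, -0.72 ± 0.41 at Tnfrsf8 and 0.04 ± 0.24 at Tnfsf12 (adjusted p = 0.984 at the first 3 and 1.00 at Tnfsf12). No member region counted as gained or lost between the doses, where 0.0556% of all regions did, and none did between LPSx2 and media, where 3.48% did.

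Between the strains, 0 of the 15 members passed, against 1.98% of all tested genes (181). The consensus correlation within an animal was -0.0668 in this fit, so its libraries entered nearly as independent ones. With the mean of each animal in place of its libraries, 24 of the 9137 genes and 0 members passed. The 3 members with an unadjusted p under 0.05 were Tnfrsf14 at -0.67 ± 0.23 peaks (BTBR minus C57BL6/J, adjusted p = 0.186), Tnfsf12 at 0.49 ± 0.19 (0.223) and Tnfrsf21 at 0.59 ± 0.25 (0.275). Library means were 1.58 ± 0.996 (SD, n = 12) in BTBR and 2.30 ± 1.25 (n = 10) in C57BL6/J for Tnfrsf14. They were 1.00 ± 0.603 and 0.400 ± 0.699 for Tnfsf12, and 1.83 ± 1.03 and 1.40 ± 0.966 for Tnfrsf21. The strains overlapped at each of these genes. No member region was held by all animals of 1 strain in most of their libraries and by none of the other, where 0.478% of all regions were. The closest, each held by 3 BTBR and 0 C57BL6/J animals in over 50% of their libraries, were the Tnfsf12 intron region (10 of 12 BTBR and 3 of 10 C57BL6/J libraries) and the Tnfrsf8 intron region (6 of 12 and 3 of 10). A Tnfsf12 region met the rule without animal 8, and a Tnfrsf8 region without animal 1 or 2. Animal 8 was the BTBR animal that did not hold the Tnfsf12 intron region, and animal 2 the one that did not hold the Tnfrsf8 intron region. Without that animal the rule required only the 3 other BTBR animals, so these 2 results follow from which animal was left out. Leaving out animal 1 also lengthened the lists of BTBR animal 2 from 11349 to 63125 peaks, so that call is not at equal list length.

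No member showed a strain difference in the response to LPS that passed, against 0.0328% of all genes for LPSx1 and 0.0109% for LPSx2. The smallest unadjusted p belonged to Tnfrsf12a after LPSx1 (0.0145, adjusted 0.799), where the fitted change was -1.52 ± 0.40 in C57BL6/J and 0.00 ± 0.37 in BTBR. At Tnfsf12 the changes after LPSx1 were -1.42 ± 0.36 in C57BL6/J and -0.75 ± 0.32 in BTBR, and their difference of 0.67 ± 0.48 did not pass (adjusted p = 0.901). At Tnfrsf8 they were 0.52 ± 0.61 and 2.00 ± 0.55, with a difference of 1.48 ± 0.82 (adjusted p = 0.879). Within a strain alone 0 of 15 members passed for either regimen, where for LPSx1 2.34% of genes passed in C57BL6/J and 0.339% in BTBR, and for LPSx2 3.18% and 0.208%.

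Other genes of the pathway were described in the same fit. Of 14 superfamily genes under other symbols, such as Fas, Cd40 and Ltbr, 4 were tested and 0 passed in any of the treatment or strain comparisons. Their median difference was -0.18 peaks after LPSx1 and 0.00 after LPSx2, and Cd70, Ltb, Ngfr, Eda and Eda2r had 0 peaks in all libraries. Of 30 adaptors and signal transducers that act below the receptors, among them the TRAF proteins, Ripk1, Birc3 and the IKK subunits, 25 were tested and 0 passed. Their median difference was 0.15 peaks after LPSx1 and 0.00 after LPSx2, and the summed peaks per library were 34 to 72 with media, 38 to 72 with LPSx1 and 29 to 75 with LPSx2.

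Among markers of other cells, the 7 osteoclast genes, which follow RANK signalling, had 5 tested and 0 that passed, with summed peaks of 7 to 16 under media, 7 to 12 under LPSx1 and 5 to 14 under LPSx2. Of the T and NK cell markers 2 were tested. Summed peaks of that list were 2 to 7 under media, 3 to 6 under LPSx1 and 2 to 7 under LPSx2, and Bcl11b rose by 1.5 ± 0.37 after LPSx2 (adjusted p = 0.0311) while Cd3e, Cd3g, Cd8a and Ncr1 stayed at 0. Of 6 dendritic cell markers 3 were tested, with summed peaks of 2 to 8, 1 to 6 and 0 to 5, and Flt3 fell by 1.12 on the peak scale after LPSx2 (adjusted p = 0.0169). Lyz2, a macrophage marker, rose by 1.53 ± 0.40 after LPSx1 (adjusted p = 0.0398). Their part in the results at the members was not tested.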

How the data were processed

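ATAC-seq libraries of 24 macrophage cultures (8 animals, media, LPSx1 and LPSx2 from each) were analysed from the authors' peak lists. Alignment was to mm10, fragments were limited to those under 147 bp, and HOMER called peaks in each library separately, per the labels' design text; per the submitters' processing notes, bedtools, Trimmomatic 0.38, Picard 2.18.4 and SAMtools 1.8 were further tools. The aligner and the HOMER version are not given in the sources used here. Each list holds 201 bp peaks with a score that the authors deposited without its scale, used here only to rank peaks within a list.

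Overlapping peaks of a list were merged to the stronger one, lists under 5000 peaks were left out, and lists were shortened to the shortest one of their lane. Peaks were assigned to the nearest of 54374 start sites of protein-coding transcripts within 100 kb. The 9137 genes averaging 0.5 peaks or more per library were fitted with limma 3.58.1 in R 4.3.3 (trend, robust) over 6 groups and the lane, averaging strains for the treatment contrasts; p-values were adjusted over all genes, with a threshold of 0.05. For the strain, the animal entered as a random effect through duplicateCorrelation (with statmod 1.5.0; consensus correlation -0.0668). The fit was tested on simulated data. A difference that did not pass is not shown to be absent. Regions were the union of the shortened lists, joined at 1 bp of overlap (44999). A region counted as gained or lost when at least 5 of 7 animals changed one way and 0 the other, and as strain-specific when over 50% of the libraries had it in each of the 4 animals of 1 strain and in 0 animals of the other.

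Libraries with the same replicate number deviated together (correlation over 0.1 in 21 of 21 pairs, median 0.48). Between different numbers of a strain this held in 11 of 60 pairs (median -0.26). Within a strain the number is also the lane, so a shared animal and a shared lane cannot be told apart here. Libraries of a number were taken as cultures of 1 animal. No pair of lists shared more than 0.334% identical peaks. Members, gene lists and tests were chosen with earlier results of these data known. Values by library are given for members that passed, for the 8 with the smallest unadjusted p and for the 6 with the most peaks. Python 3.11.15 with pandas 2.3.3 and numpy 2.4.6 computed the regions, and sequences came from the GRCm38.p6 reference, past whose chromosome ends 0 peaks lay.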

Additional observations from a re-analysis of the deposited data

Results flagged for a closer look

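In the LPSx1 group, the C57BL6/J library of animal 4 had 4 peaks at Tnfrsf14, apart from the other 7 LPSx1 libraries, which had 1 or 2. It was the only one of 15 groups tested in this way that held such a library. How often chance alone marks a library among such small peak numbers was not tested, so the mark is not read as a result. The library is from lane 2, which had the longest lists (22037 peaks). Without animal 4 the difference at Tnfrsf14 between LPSx2 and media was 0.88 peaks (adjusted p = 0.121) in place of 1.29.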

How the results depend on the processing

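Each result was recomputed under up to 20 other settings, 1 of them (lanes 3 and 4 alone) chosen after seeing the data. Members passing for LPSx1 against media (3) became 1 without the lane covariate, within 25 kb and in lanes 1 and 2 alone (Tnfsf12 each time). With the stronger 50% of each list 1 passed (Tnfsf13b). Of the 3, Tnfsf4 and Tnfsf8 were too low to be tested within 25 kb, as were all 3 with the stronger 50%. The number was 0 with lists at full length, with lists limited within an animal, without the lists rich in overlapping peaks and in lanes 3 and 4 alone. For LPSx2 against media (2) they became 1 without the lane covariate and with the replicate block (Tnfsf12) and with the stronger 50% (Tnfsf13b), and 0 in the latter 4 settings. Counts also hid exchanged members: with unmerged peaks Tnfrsf8 took the place of Tnfsf8 for LPSx1, without animal 1 Tnfrsf12a took that of Tnfsf8 for LPSx1 and of Tnfrsf14 for LPSx2, in lanes 1 and 2 alone Tnfrsf21 took that of Tnfrsf14 for LPSx2, and log2(peaks + 1) added Tnfsf4 for LPSx2. In all genes together 0 passed for either regimen with lists at full length or limited within an animal. The replicate block called 353 genes for LPSx1 and 476 for LPSx2, and Tnfrsf14 after LPSx2 was the only member call it changed. Leaving out 1 animal, with the lists of its lane shortened anew, gave 0 to 4 and 0 to 2 members. In lanes 1 and 2 alone, 1 member (Tnfrsf21) passed for LPSx2 against LPSx1, and 2 (Tnfsf12 and Tnfrsf21) for the strain and for the strain difference in each response; there Tnfsf12 did not vary within any group, and the lanes differed at Tnfrsf21 by the same 2 peaks in every group, so their standard errors were near 0. The strain gave 1 member (Tnfrsf8) with unmerged peaks and 0 to 1 without an animal. Regions gained or lost after LPSx1 (2, at Tnfrsf8 and Tnfsf8) became 1 with lists at full length or limited within an animal (Tnfrsf8), 3 with the stronger 50% (gained at Tnfsf13b and Tnfsf4, lost at Tnfsf12), and 0 to 2 without an animal; after LPSx2 (0) they became 2 with lists at full length, 3 with the stronger 50% and 0 to 1 without an animal. Strain-specific regions (0) became 1 in lanes 1 and 2 alone and 0 to 1 without an animal, where the rule rested on fewer animals. Without the lists rich in overlapping peaks or in lanes 1 and 2, too few animals remained for the treatment rule. Reversed directions were Tnfsf8 after LPSx1 (2.05 at full length, 0.10 within an animal) and after LPSx2 (1.29 at full length), Tnfrsf14 between strains (1.67 and 0.93), and Tnfrsf21 between strains (-0.22 without the lists rich in overlapping peaks, -0.14 in lanes 3 and 4). The cause of these changes was not tested. Genes passing in all fell from 510 to 112 and from 568 to 150 without the lane covariate, to 225 and 313 with the stronger 50% and to 75 and 94 without the lists rich in overlapping peaks. Peak lists carry no read depth, so a weak region below a list's limit cannot be told from an absent one.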
